A study of Mus musculus with 18 samples.

Results

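Sensory neurons carrying 1 wild-type and 1 tm1a copy of Dynlrb1 (HET, genotype Dynlrb1(tm1a/+)) were compared with wild-type (WT) neurons 12 h after plating. The members are the 6 cultures labelled 12h, 3 HET and 3 WT, out of 18 cultures in the series. They were chosen by genotype and time alone, and both genotypes carry the replicate numbers 1, 2 and 5. The other 12 cultures, 3 per genotype at 24 h and at 48 h, are used to estimate the spread and to follow the 12 h differences. RNA was prepared from primary dorsal root ganglion (DRG) cultures, and expression was measured by sequencing for 17198 genes. The design text calls the 3 cultures of a group biological repeats. It gives neither the animals' age and sex nor the number of mice behind a culture. The allele is constitutive as labelled, with no Cre named, so glia and other cells in the dish carry it as well as the neurons.

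Dynlrb1 encodes roadblock-1, a light chain that binds the intermediate chains of cytoplasmic dynein-1. This motor moves endosomes, organelles and injury signals from axons to the soma, and the dynactin complex and cargo adaptors make it processive. Cultured DRG neurons are axotomized when the ganglion is dissociated and then regrow neurites, so the first hours in culture combine an injury response with renewed outgrowth. A tm1a allele is a knockout-first insertion whose trapping cassette, in the designs of the international knockout mouse projects, contains a splice acceptor taken from the En2 gene.

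At 12 h a small number of genes separated the genotypes. Dynlrb1 was at 58.1% of its WT mean, and En2, nearly silent in WT at a mean normalized count of 3.93, averaged 50.3 in HET. With same-numbered cultures paired, 17 of 17198 genes passed an adjusted p of 0.05 (0.0988% of genes tested), in a limma fit with Benjamini-Hochberg adjustment. Of these, 4 were higher in HET (0.0233%) and 13 were lower (0.0756%). The lower genes included proteins of the extracellular matrix and cell adhesion, Hspg2, Fat1, Tnc, Col12a1 and Tns3. Without the pairing, limma with the same adjustment called 1 gene, En2 (0.00581%), with 1447 genes (8.41%) at an unadjusted p under 0.05. Those included 16 of the 17, all but Tnc (unadjusted limma p 0.0708). As the 17 were chosen in the same cultures, that count is a description. The authors' deposited table, at an adjusted p under 0.05, had 4 genes (0.0233%), Dynlrb1, En2, Nav2 and Slc15a2, of which 3 were among the 17. The paired count was 1 (Nav2) without the cultures numbered 1, 0 without those numbered 2 and 54 without those numbered 5.

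More genes lay below the unadjusted threshold. At p under 0.05 there were 2499 genes (14.5%), 736 higher (4.28%) and 1763 lower in HET (10.3%). The lower genes were 70.5% of these, against 56.4% in the authors' other expression columns and 53.7% after quantile normalization. The 3 HET and 3 WT values did not overlap in 2592 genes (15.1%), with HET above WT in 1216 and below in 1376, and among the 17 called genes in 15. The median difference of all genes was -0.02 (log2), with quartiles of -0.21 and 0.11. In RNA from whole cultures, fewer cells of a type and less RNA per cell cannot be told apart.

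**Figure D1:**
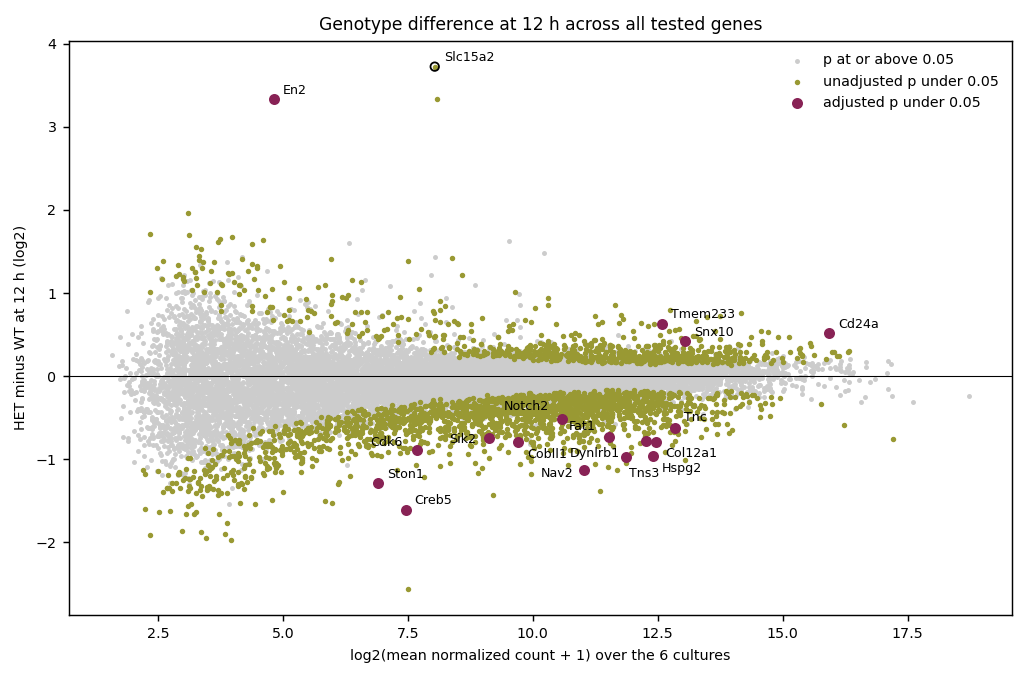
HET minus WT difference at 12 h (log2, vertical axis) against mean level (log2 of the mean normalized count + 1, horizontal axis) for the 17198 genes; purple points passed an adjusted p of 0.05 in the paired limma fit. En2 and Slc15a2 stand far above the other labelled genes, and the purple points below 0 lie at medium to high levels.

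The targeted gene came first. Dynlrb1 (ENSMUSG00000047459, GRCm38.p6 chr2:155236533-155250277) had normalized counts of 6674, 6589 and 5321 in WT cultures 1, 2 and 5. In HET cultures 1, 2 and 5 it had 3298, 4087 and 3414. Every HET value lay below every WT value, and the levels per length were 218 FPKM in WT and 126 FPKM in HET. Means were 6195 ± 758 for WT and 3599 ± 426 for HET (SD, n = 3 each). The difference was -0.78 (log2, SE 0.12), with a limma Benjamini-Hochberg adjusted p of 0.0370 with pairing and 0.0655 without it. The unadjusted limma p was 2.38e-05 with pairing and 7.61e-06 without it, so the order of the adjusted values comes from the other genes. A two-sided exact permutation test of the 3 against 3 values gave p = 0.1, the smallest it allows. The limma adjusted p was 0.0918 without the cultures numbered 1 and 0.309 without those numbered 2. The pairs numbered 1, 2 and 5 differed by -1.02, -0.69 and -0.64.

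The paralog Dynlrb2, the other roadblock light chain, was near the bottom of the range, at 0.322 FPKM in WT and 0.405 FPKM in HET. Its normalized counts were 2.40, 9.0 and 9.24 in WT and 10.8, 11.6 and 3.63 in HET, and the groups overlapped. Its log2 difference of 0.33 (SE 0.51) became -0.41 without the cultures numbered 1.

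En2 (ENSMUSG00000039095, GRCm38.p6 chr5:28165696-28172190) encodes engrailed-2, a homeodomain factor of the midbrain and hindbrain. Its normalized counts were 3.97, 4.89 and 2.92 in WT and 43.2, 35.2 and 72.4 in HET. The lowest HET value was several times the highest WT value. The log2 difference was 3.33 (SE 0.39), with a limma Benjamini-Hochberg adjusted p of 0.00941 with pairing and 0.00648 without it. It was called under 10 of 12 alternative settings, and missed the threshold without the cultures numbered 1 (adjusted p 0.0654) or 2 (adjusted p 0.0988). The level in HET stayed low, 0.342 FPKM. Counts per gene do not show which part of En2 the reads cover, so reads from the cassette's En2 piece and from the En2 locus cannot be told apart here. Of the 19 measured engrailed, Hox and other patterning genes, a list built with the En2 result known, En2 was the 1 that passed.

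Slc15a2 (ENSMUSG00000022899, GRCm38.p6 chr16:36750161-36785158) encodes PEPT2, a proton-coupled carrier of short peptides. It had the largest log2 difference of the table at 12 h but did not pass in the main fit. Normalized counts were 27.5, 27.1 and 56.3 in WT and 506, 335 and 618 in HET. The groups were far apart, with pairs 1, 2 and 5 at 4.15, 3.58 and 3.43. The difference was 3.72 (SE 0.67, an SE that the main fit takes from the cultures of all 3 times). Its limma Benjamini-Hochberg adjusted p was 0.0599 with pairing and 0.107 without it, while the authors' deposited table gave an adjusted p of 5.91e-06. It was called under 2 of 12 alternative settings. With only the 12 h cultures fitted its limma adjusted p was 2.62e-05, the lowest of that fit. At 24 h HET cultures 1, 2 and 5 had 302, 144 and 331 against 11.9, 19.96 and 27.0 in WT. At 48 h cultures 1 and 2 kept that order, and number 3 had 44.6 in HET and 127 in WT. Of 16 measured peptide and amino acid transporters, also listed with this result known, 13 had negative differences and none passed.

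**Figure D2:**
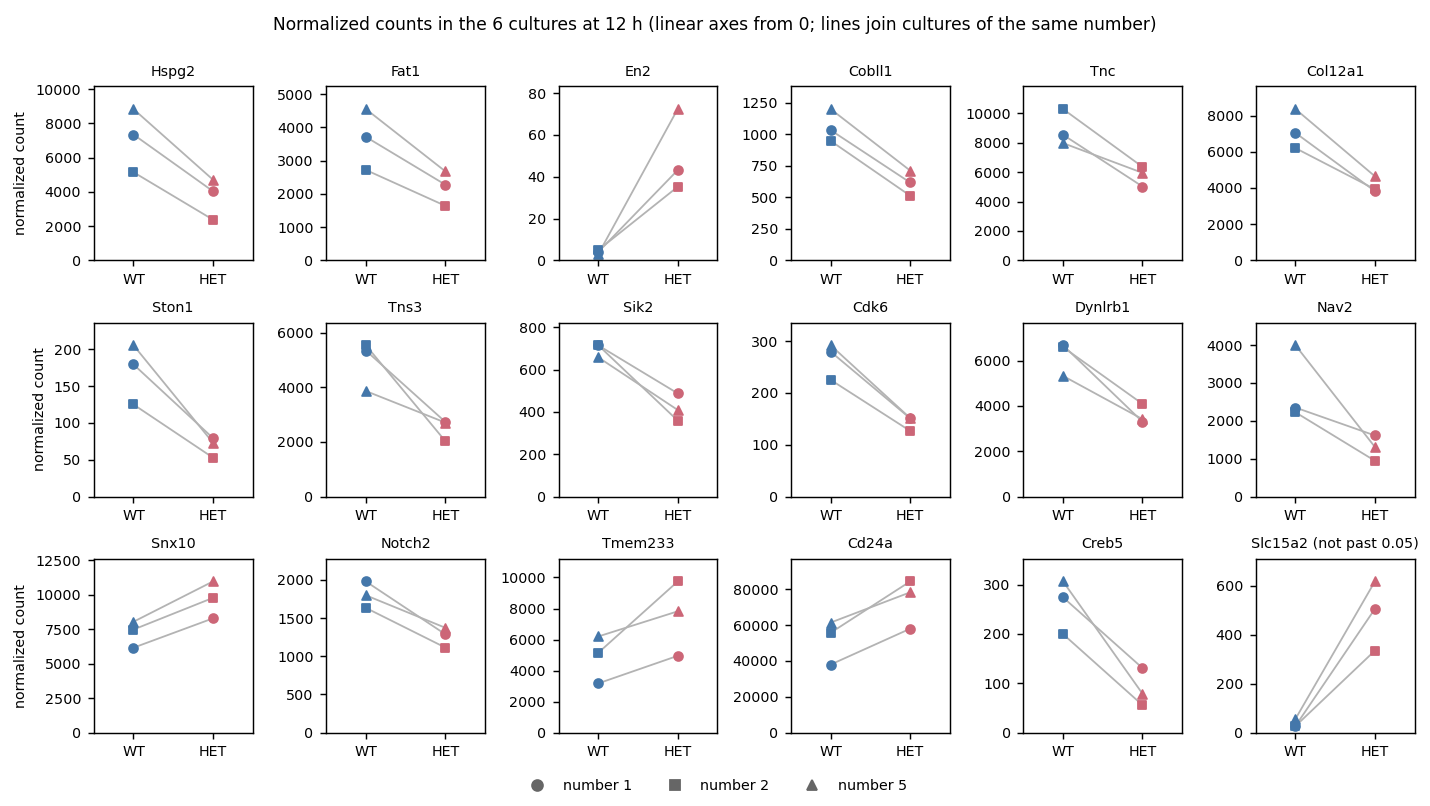
Normalized counts (vertical axes, linear from 0) in the 3 WT (blue) and 3 HET (red) cultures at 12 h for the 17 genes past the threshold and Slc15a2; marker shapes give the replicate number and lines join cultures of the same number. In all 17 genes every line runs in 1 direction, and in Tmem233 and Cd24a the groups overlap.

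Among the 13 lower genes, Hspg2 and Fat1 had the lowest p-values. Hspg2 (GRCm38.p6 chr4:137468751-137570630) encodes perlecan, the heparan sulfate proteoglycan of basement membranes. Its normalized counts were 7356, 5153 and 8845 in WT and 4041, 2377 and 4716 in HET. Every HET value lay below every WT value, and culture 2 was the lowest in both groups. Hspg2 fell by 0.96 (log2, SE 0.11; limma Benjamini-Hochberg adjusted p 0.00941 with pairing, 0.577 without). Fat1 (chr8:44933100-45052257), an atypical cadherin, had 3714, 2719 and 4553 in WT and 2277, 1640 and 2679 in HET. Its groups did not overlap either, and it fell by 0.73 (SE 0.085; limma adjusted p 0.00941 with pairing, 0.577 without).

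Tnc encodes tenascin-C, a matrix glycoprotein induced in injured tissue. It had 8542, 10294 and 7977 in WT and 5022, 6357 and 5951 in HET, at -0.63 (log2, SE 0.083). Col12a1, a fibril-associated collagen, had 7046, 6203 and 8364 in WT and 3826, 3934 and 4647 in HET, at -0.80 (SE 0.11). Tns3, a tensin of focal adhesions, had 5345, 5539 and 3862 in WT and 2733, 2031 and 2708 in HET, at -0.98 (SE 0.14). For all 3 the lowest WT culture lay above the highest HET culture. The limma Benjamini-Hochberg adjusted p values were 0.0206, 0.0264 and 0.0282 with pairing, and 0.598, 0.577 and 0.577 without it.

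Nav2 (chr7:48959063-49610090), neuron navigator 2, is a microtubule-associated protein of neurite growth. It had 2350, 2225 and 3996 in WT and 1613, 944 and 1309 in HET. The fall of 1.13 (log2, SE 0.17; limma Benjamini-Hochberg adjusted p 0.0370 with pairing, 0.577 without) came from non-overlapping groups, and the pairs ranged from -1.61 to -0.54. Creb5, a leucine zipper transcription factor, had the largest decrease, with 274, 200 and 306 in WT and 131, 55.9 and 79.0 in HET. It fell by 1.61 (log2, SE 0.26; limma adjusted p 0.0484 with pairing, 0.577 without). Notch2, a receptor for Delta and Jagged ligands, had 1979, 1633 and 1798 in WT and 1288, 1114 and 1373 in HET. All Notch2 values in HET were below those in WT, with a difference of -0.52 (SE 0.082; limma adjusted p 0.0419 with pairing, 0.577 without).

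The remaining lower genes have roles in trafficking, signalling and the cell cycle. Ston1, an endocytic adaptor of the stonin family, stood at 40.3% of its WT mean (log2 difference -1.29, SE 0.18). Cdk6, a cyclin D-dependent kinase, stood at 53.9% (-0.88, SE 0.13). Cobll1, an actin-binding relative of cordon-bleu, stood at 57.9% (-0.79, SE 0.10), and Sik2, a salt-inducible kinase, at 60.2% (-0.74, SE 0.11). None of the 4 overlapped between groups. Their limma Benjamini-Hochberg adjusted p values with pairing were 0.0264 for Ston1, 0.0370 for Cdk6, 0.0190 for Cobll1 and 0.0370 for Sik2, and without pairing the lowest was 0.381 (Sik2).

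The 4 lower families named next were picked by symbol after values had been seen, so their counts are a description. Of 43 collagen genes 36 had negative differences, and Col12a1 alone passed the adjusted threshold. At an unadjusted p under 0.05, 10 of the 43 were lower (23.3%). The background for lower genes was 10.3% of all genes, but 23.3% of genes with a length of at least 4510 bases. Median lengths, as implied by the authors' FPKM values, were 6086 bases for collagen, 6046 for laminin and 4679 for integrin genes. The collagen share thus equalled that of long genes, while the laminin (54.5%) and integrin (37%) shares were above it. Col4a2, a basement membrane collagen chain, averaged 10364 in WT and 6567 in HET (-0.66, adjusted p 0.0777). Summed over the family, collagen levels ran from 212 to 330 FPKM in WT and from 155 to 199 FPKM in HET. Of 11 laminin genes 10 were negative and 6 had an unadjusted p under 0.05, led by Lama2 at 1618 and 971 (-0.74, adjusted p 0.0534). Of 27 integrin genes 23 were negative and 10 had an unadjusted p under 0.05. Itgav, the alpha V subunit, averaged 5094 in WT and 3363 in HET (-0.60, adjusted p 0.0582 in limma with Benjamini-Hochberg adjustment). Of the 4 Notch receptor genes 3 were lower at that level, Notch1, Notch2 and Notch4, and Notch3 was at 0.08. Family medians were -0.34, -0.32, -0.20 and -0.56 in the order given, against -0.02 for all genes. The collagen value rested mostly on the cultures numbered 1: its pair medians were -0.69, -0.13 and -0.08 for numbers 1, 2 and 5, and the median was -0.10 without number 1.

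The start regions of the called genes were read from RefSeq (GRCm38.p6), which held an entry for 14 of the 17. The 250 bases upstream of the annotated start are shown for the targeted gene and for a matrix gene and a receptor gene that fell. They are Dynlrb1 (chr2:155236283-155236532, plus strand), Tnc (chr4:64047016-64047265, minus strand) and Notch2 (chr3:98013288-98013537, plus strand). Capitals mark the GC box letters GGGCGG on either strand.
Dynlrb1: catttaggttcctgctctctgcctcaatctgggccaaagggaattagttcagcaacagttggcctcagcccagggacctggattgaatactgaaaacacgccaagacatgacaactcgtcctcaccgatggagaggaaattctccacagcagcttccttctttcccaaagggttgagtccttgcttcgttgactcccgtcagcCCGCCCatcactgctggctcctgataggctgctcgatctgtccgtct
Tnc: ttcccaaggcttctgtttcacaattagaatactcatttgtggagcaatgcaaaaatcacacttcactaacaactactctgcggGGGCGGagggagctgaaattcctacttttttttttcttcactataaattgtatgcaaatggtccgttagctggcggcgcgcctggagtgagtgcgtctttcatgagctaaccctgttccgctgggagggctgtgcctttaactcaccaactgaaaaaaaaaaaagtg
Notch2: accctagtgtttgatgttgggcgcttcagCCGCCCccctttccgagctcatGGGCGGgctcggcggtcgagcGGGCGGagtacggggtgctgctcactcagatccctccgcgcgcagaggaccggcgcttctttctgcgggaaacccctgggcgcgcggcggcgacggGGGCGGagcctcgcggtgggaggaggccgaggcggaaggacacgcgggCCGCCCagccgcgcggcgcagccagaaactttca
The Notch2 region held 5 such matches and the other 2 held 1 each. The GC box occurred in 9 of the 12 lower genes with an entry, against 54.7% of all 12599 upstream regions of the same length. GGAATG, the core letters bound by TEAD factors, occurred in 2 of 12 (Fat1 and Ston1) against 1390 of the 12599. Both matches lay inside the gene, not upstream of its start. The Fat1 region was chr8:44949958-44950207, with the gene starting at 44933100. The Ston1 region was chr17:88626305-88626554, with the gene starting at 88597615. Regions of Hspg2, Cobll1, Tns3, Sik2, Cdk6, Nav2 and Creb5 also lay wholly or partly inside the gene. The GC box count for lower genes is therefore not one of upstream bases alone. The AP-1 letters TGANTCA occurred in 0 of 12 against 4.94%. These letter matches are not evidence of binding.

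Apart from En2, the 3 genes that rose did so by modest amounts. Snx10 (GRCm38.p6 chr6:51523900-51590679), a sorting nexin of endosomes, had 6153, 7467 and 8032 in WT and 8276, 9761 and 10948 in HET. Those groups did not overlap, and the 3 pairs differed by 0.43, 0.39 and 0.45. The rise was 0.42 (log2, SE 0.065; limma Benjamini-Hochberg adjusted p 0.0370 with pairing, 0.577 without). Cd24a, a glycosyl-phosphatidylinositol-anchored surface glycoprotein, had 37987, 55714 and 61392 in WT and 57944, 84297 and 78240 in HET. Tmem233, a small membrane protein, had 3178, 5148 and 6200 in WT and 4953, 9743 and 7820 in HET. In both, HET exceeded WT within each number although the groups overlapped. Cd24a rose by 0.52 (SE 0.084) and Tmem233 by 0.63 (SE 0.10), with limma adjusted p of 0.0484 and 0.0468 with pairing, and 0.577 for both without it.

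The next higher genes were ranked by p only among those with no overlap, the same sign in the 3 pairs and a mean of at least 100. They were Ppef1, Idh1, Coil, Rnase4, Tubb2b, Acly and Syt5, besides Slc15a2, and none was past the threshold. Their limma Benjamini-Hochberg adjusted p values ran up to 0.120. Tubb2b, a neuronal beta-tubulin, averaged 10836 ± 1062 for WT and 13816 ± 1538 for HET (SD, n = 3 each). Syt5, a synaptotagmin, averaged 4439 in WT and 5678 in HET. Idh1, cytosolic isocitrate dehydrogenase, and Acly, ATP citrate lyase, which supplies cytosolic acetyl-CoA, averaged 5810 and 7781, and 37402 and 45419, in WT and HET. All were non-overlapping, as the rule for naming them required.

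The genotype difference moved with gene length, taken as the length implied by the authors' FPKM values. Split into 5 equal bins from short to long, the genes had median differences of 0.04, 0.02, 0.00, -0.03 and -0.11 (log2). In the longest bin 23.3% of genes were lower at an unadjusted p under 0.05, against 3.25% in the shortest. Of the 13 genes that fell, 8 were in the longest bin, and their median length was 7100 bases against 2696 for all genes. The trend was present in the pairs numbered 2 (0.06 in the shortest bin to -0.12 in the longest) and 5 (0.20 to -0.13). In the pair numbered 1 it ran the other way, from -0.12 to -0.04. After a smooth length trend was taken out of each culture's values, an alternative chosen after seeing the data, limma with Benjamini-Hochberg adjustment called 2 genes, Dynlrb1 (-0.82, adjusted p 0.0209) and En2 (3.37, adjusted p 0.0209). Hspg2 was then at -0.72 (adjusted p 0.0592) and Fat1 at -0.49 (adjusted p 0.0592). Lower genes made up 45.7% of those with an unadjusted p under 0.05 in that fit. The medians of the collagen, laminin, integrin and Notch families were -0.22, -0.14, -0.14 and -0.37.

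**Figure D3:**
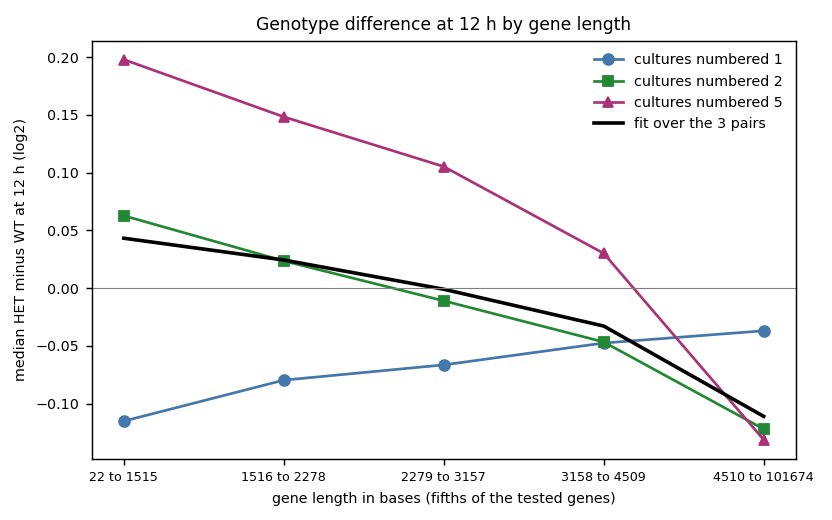
Median HET minus WT difference at 12 h (log2, vertical axis) in 5 bins of gene length (bases, horizontal axis) for each pair of same-numbered cultures and for the fit (black). The pairs numbered 2 and 5 slope down toward long genes, and the pair numbered 1 slopes gently up.

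Other measures also separated cultures. Rn45s, the ribosomal RNA precursor, had 156070, 134350 and 290360 in WT and 121750, 101660 and 103330 in HET, so that all HET cultures were lower and WT culture 5 was highest (-0.75, limma Benjamini-Hochberg adjusted p 0.191). Xist, expressed from the inactive X chromosome, had 18316, 1854 and 83.4 in WT and 12850, 2381 and 62.5 in HET, the same order by number in both genotypes. Correlations among the 6 cultures over all genes were high, with medians per culture from 0.983 to 0.988. What lies behind the values of these genes, and its part in the genotype differences, was not tested.

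No dynein or dynactin partner of roadblock-1 passed the adjusted threshold, and most had positive differences. Of 15 measured dynein-1 chains and regulators, 11 were positive and 4 negative, from -0.51 to 0.67, with a median of 0.12, and 6 were higher at an unadjusted p under 0.05 (background 4.28%). Dync1i2, an intermediate chain to which roadblock binds, had 18035, 20793 and 20667 in WT and 21042, 23986 and 24157 in HET. The groups did not overlap, at 0.22 (log2, SE 0.075; limma Benjamini-Hochberg adjusted p 0.217). Dynlt3, a Tctex-type light chain, averaged 14872 in WT and 18513 in HET (0.32, adjusted p 0.272). The heavy chain Dync1h1 averaged 112000 and 93398 (-0.25), and the light chain Dynll2 11970 and 8495 (-0.51), with overlapping groups in both and adjusted p of 0.378 and 0.408.

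Of the 12 dynactin subunits 11 were positive, with a median of 0.12, and 3 had an unadjusted p under 0.05. All 3 were higher, and over all genes 4.28% were higher and 10.3% lower at that level. Dctn2, the dynamitin subunit, averaged 17814 in WT and 20110 in HET (0.17, limma adjusted p 0.272). Of 15 measured cargo adaptors 11 were negative, with a median of -0.04 and none below an unadjusted p of 0.05. The 16 kinesins of axonal transport had a median of 0.04, and Kif1c (-0.38) and Kif21b (-0.34) were the 2 below that level. No motor, dynactin, adaptor or kinesin gene other than Dynlrb1 passed the adjusted threshold.

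Genes of DRG neuron subtypes were read next, since each marks a different kind of sensory fibre. The non-peptidergic nociceptor list, genes of small neurons that innervate skin, had 17 of 18 members positive, a median of 0.65 and 9 higher at an unadjusted p under 0.05, against 4.28% of all genes. None of them passed the adjusted threshold (limma, Benjamini-Hochberg). The list median was 0.65 in pair 1, 1.12 in pair 2 and 0.18 in pair 5, and it was -0.10 at 24 h and 1.25 at 48 h. Without the cultures numbered 2 the 12 h median was 0.37. Mrgprd, a receptor that marks most of these neurons, had 3150, 5521 and 6167 in WT and 5544, 13025 and 7854 in HET. HET was higher in each pair, but WT culture 5 exceeded HET culture 1 (0.80, adjusted p 0.342). Mrgprb4 had 131, 210 and 160 in WT and 333, 881 and 295 in HET, and Mrgprb5 and Mrgpra3, related receptors, were likewise non-overlapping, as were 15.1% of all genes. Reads of these closely related receptors may be shared between family members, which makes their values uncertain.

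Peptidergic nociceptor genes were split, with 3 higher and 1 lower of 10 at an unadjusted p under 0.05 and a median of 0.06. Over all genes 4.28% were higher and 10.3% lower at that level. Calcb, a calcitonin gene-related peptide, averaged 8245 in WT and 11511 in HET (0.49), and Kit, a receptor tyrosine kinase, 3440 and 2751 (-0.33). Large-diameter and touch neuron genes had a median of -0.17, with 0 higher and 3 lower of 15. Ntrk3, the NT-3 receptor of proprioceptors, had 3313, 2578 and 4634 in WT and 3134, 1582 and 1754 in HET. Its pairs ran from -1.40 to -0.08, with overlapping groups (-0.73, adjusted p 0.191). The 16 pan-neuronal and sensory identity genes had a median of 0.13, and 4 were higher at an unadjusted p under 0.05. Prph, peripherin, an intermediate filament of DRG neurons, averaged 73786 ± 2669 for WT and 91572 ± 12936 for HET (SD, n = 3 each; 0.30, limma adjusted p 0.254). Peripherin RNA was abundant in all 6 cultures.

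Injury and stress genes gave no member past the threshold. The 20 regeneration transcription factors had a median of 0.04, with 2 higher and 1 lower at an unadjusted p under 0.05. For this and the next lists, the shares over all genes at that level were 4.28% higher and 10.3% lower. Smad1, a mediator of BMP signals in axon regrowth, averaged 7998 in WT and 9456 in HET (0.24, limma adjusted p 0.191), and Egr1 5337 and 3516 (-0.62, adjusted p 0.249). Among 30 measured regeneration effectors 1 was higher and 5 were lower, and Lif, an injury-induced cytokine, averaged 989 in WT and 616 in HET (-0.66, adjusted p 0.158). Heat shock genes had 3 higher and 2 lower of 20, and integrated stress response genes 2 and 2 of 20. Ddit3, the CHOP factor of the latter list, averaged 6227 in WT and 7658 in HET (0.31, adjusted p 0.217). Its groups did not overlap, as in 15.1% of all genes. Neuronal apoptosis genes had 0 higher and 1 lower of 20, the BH3-only gene Bcl2l11 (-0.34, adjusted p 0.260). The 16 immediate early genes had 2 lower, Egr1 and Egr3.

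Markers of the other cells of a DRG dish had negative medians over the 3 pairs, but not in each pair. In pair 5 the medians were positive for satellite glia (0.13), fibroblast (0.29), macrophage (0.52) and endothelial genes (0.25). Without the cultures numbered 1 the medians were -0.06 for Schwann cell, -0.04 for satellite glia, -0.03 for fibroblast, 0.22 for macrophage and -0.19 for endothelial genes, and without those numbered 5 they were -0.27, -0.28, -0.47, -0.27 and -0.61. Over all genes 10.3% were lower and 4.28% higher at an unadjusted p under 0.05, so counts such as 2 of 12 and 3 of 18 are near that background. The 18 Schwann cell and myelin genes had a median of -0.23, with 3 lower and 1 higher at an unadjusted p under 0.05, and summed to between 766 and 1004 FPKM in WT and between 805 and 952 FPKM in HET. Sox10, the glial lineage factor, had 1905, 1650 and 1626 in WT and 1034, 1271 and 1422 in HET, with no overlap (-0.48, limma adjusted p 0.139). Pmp22, the 1 higher gene, went the other way without overlap. It had 22480, 25604 and 22877 in WT and 27197, 27140 and 27403 in HET (0.21, limma adjusted p 0.217). Without overlap, 4 members of this list were lower and 1 was higher, where 15.1% of all genes did not overlap. The 12 satellite glia genes had a median of -0.14 and 3 lower, with sums of 495 to 666 FPKM in WT and 404 to 696 FPKM in HET. The 12 fibroblast and perivascular genes had a median of -0.21 and 2 lower, with sums of 412 to 579 and 436 to 500 FPKM. The 12 endothelial genes had a median of -0.28 and 4 lower, Flt1, Cdh5, Vwf and Kdr, with sums of 129 to 183 and 101 to 151 FPKM. The 15 measured macrophage genes had a median of -0.07 and 0 below that level, with sums of 56.1 to 115 and 68.4 to 92.1 FPKM. All these ranges overlap between genotypes, and matrix genes such as Tnc, Hspg2 and the collagens are made by several of these cells. The part of cell composition in the lower genes was not tested. The 20 cell cycle genes had a median of -0.17, with 4 lower at an unadjusted p under 0.05; the median was -0.07 without the cultures numbered 1.

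Neutrophil and red cell genes were decided by 1 culture. All 11 measured members were positive, with a median of 1.16, but the pair medians were 0.04, 0.05 and 3.52 for numbers 1, 2 and 5. WT culture 5 had a summed level of 9.63 FPKM, against 282 FPKM in the highest WT culture and between 120.0 and 281.5 FPKM in HET. No member passed, and the lowest limma Benjamini-Hochberg adjusted p was 0.204.

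**Figure D4:**
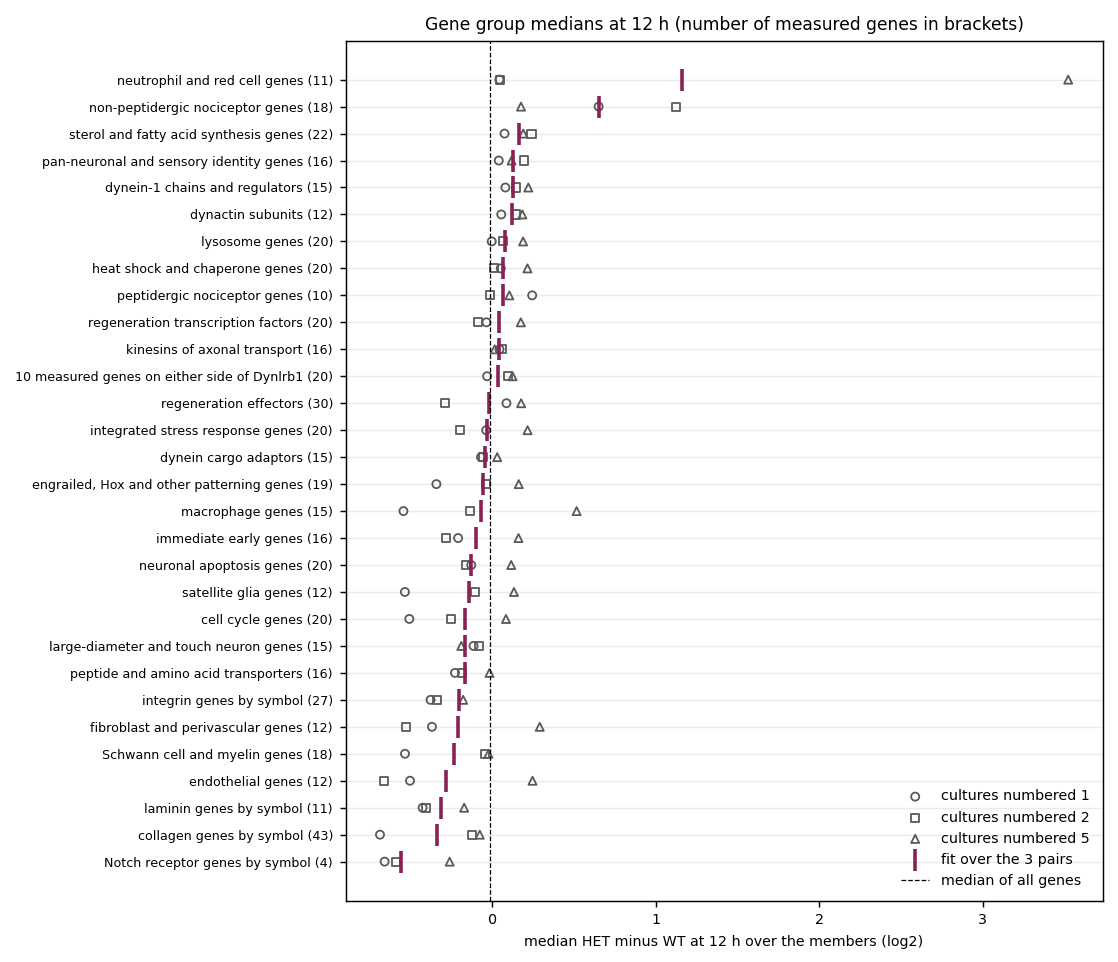
Median HET minus WT difference at 12 h (log2, horizontal axis) over the measured members of each gene group (vertical axis, number of genes in brackets); open markers are the 3 pairs of same-numbered cultures, bars the fit over the pairs, and the dashed line the median of all genes. The pair numbered 5 sets the neutrophil and red cell group apart, and in the non-peptidergic nociceptor group all 3 pairs lie above 0. The median of the dynein cargo adaptors was -0.04 and becomes 0.04 without the cultures numbered 1.

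No lipid synthesis or lysosome gene of the lists used passed the adjusted threshold, and most had positive differences. Of 22 sterol and fatty acid synthesis genes 18 were positive, with a median of 0.17, and 7 were higher at an unadjusted p under 0.05, against 4.28% of all genes. Scd1, a desaturase that makes monounsaturated fatty acids, had 20780, 27206 and 28644 in WT and 27719, 40465 and 38424 in HET. HET was higher in each pair with overlapping groups (0.47, SE 0.092, limma Benjamini-Hochberg adjusted p 0.0719). Fdps, an enzyme of isoprenoid synthesis, averaged 3483 and 4816 (0.46, adjusted p 0.179). Srebf2, the transcription factor that drives sterol synthesis genes, had a difference of -0.14 (adjusted p 0.576). Of 20 lysosome genes 18 were positive, with a median of 0.08 (0.03 without the cultures numbered 5) and 3 at that level, Hexa and Ctsl among them. Hexa, a subunit of beta-hexosaminidase, averaged 3316 and 4115 (0.30, adjusted p 0.120).

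The 10 measured genes on either side of Dynlrb1 on chromosome 2 were also read. Their median difference was 0.03, from -0.71 (Ncoa6) to 0.57, and none passed. Itch, the nearest on the upstream side, averaged 4879 ± 119 for WT and 5143 ± 161 for HET (SD, n = 3 each; 0.08). Map1lc3a, the LC3A autophagy gene on the other side, averaged 11845 and 12502 (0.08). Chmp4b (0.16) and Ncoa6 were the 2 at an unadjusted p under 0.05, where 14.5% of all genes were.

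The later cultures were used to see how the 12 h differences stood over time. At 24 h 11 of the 17 genes had the same sign as at 12 h and none passed, where 0 genes of the table passed (0%). At 48 h all 17 had the same sign and 11 passed, against 12.3% of all genes in that comparison. Their median absolute difference (log2) went from 0.79 through 0.13 at 24 h to 0.52 at 48 h. The 17 were selected at 12 h, so a larger size there follows in part from the selection. The fit also gives a gene the same SE at all times. A small SE that helped the call at 12 h therefore enters the 48 h test too, and 11 of 17 is a description.

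Dynlrb1 kept its level, its difference being -0.86 after 24 h (limma adjusted p 0.157) and -0.84 after 48 h (limma adjusted p 0.00208). En2 was higher in every pair at each time, at 3.33, 1.75 and 1.40, as its WT counts went from 2.92 to 4.89 at 12 h to 8.83 to 16.4 at 48 h. Tnc stood at -0.63, 0.03 and -0.52, Fat1 at -0.73, 0.01 and -0.56, and Cdk6 at -0.88, -0.09 and -0.75. For Snx10 the difference was 0.42, 0.13 and 0.00, and for Creb5 it was -1.61, -0.57 and -0.14.

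The change of the genotype difference with time was tested itself. No gene passed for 12 h against 24 h (0 genes, 0%), with a lowest limma Benjamini-Hochberg adjusted p of 0.486 and 1015 genes (5.90%) at an unadjusted p under 0.05. None passed for 12 h against 48 h (0 genes, 0%), with a lowest adjusted p of 0.125 and 2566 genes (14.9%) at an unadjusted p under 0.05. Of the 17 genes, 16 had an unadjusted p under 0.05 against 24 h, Dynlrb1 being the exception at 0.644, and 9 against 48 h. As the 17 were chosen for their 12 h contrast, which enters this test, those counts are a description.

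**Figure D5:**
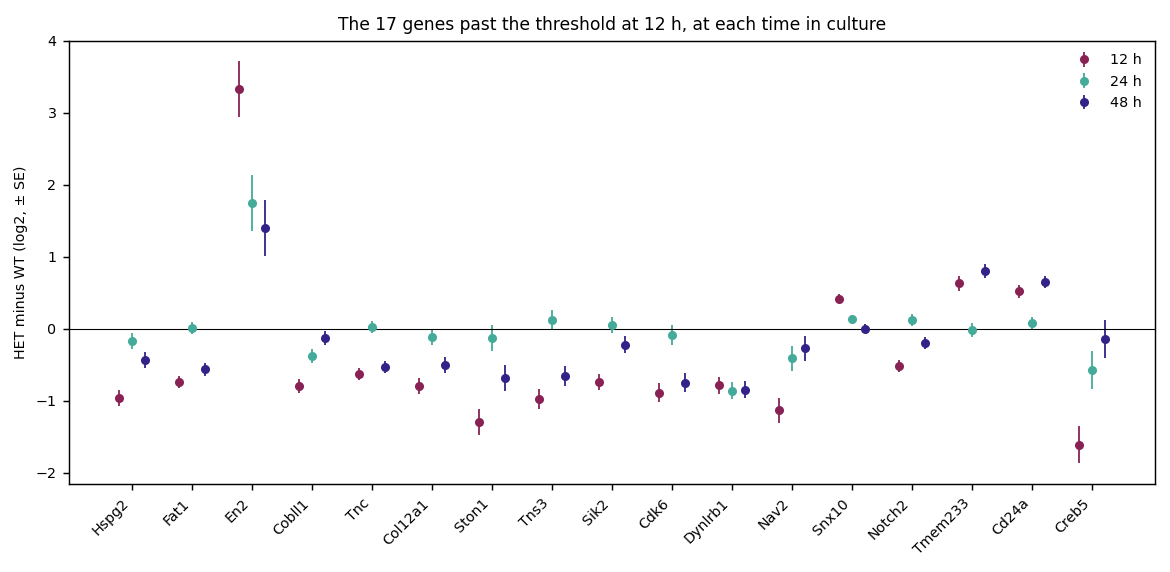
HET minus WT difference (log2, vertical axis, points with bars of 1 SE from the paired fit) at 12, 24 and 48 h for the 17 genes past the threshold at 12 h (horizontal axis). Dynlrb1 lies near the same value at all 3 times, En2 is largest at 12 h, and most other genes are closest to 0 at 24 h.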

How the data were processed

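RNA-seq of 6 cultures at 12 h, 3 per genotype, was analysed with the other 12 cultures of the series. Per the submitters' processing notes, CASAVA 1.8.2, edgeR and the mm10 build were used; the aligner, counter, annotation and gene filter are not given in the sources used here. Per the file headers, the authors deposited normalized counts, a signal that is no longer whole numbers (0 whole values and 0 zeros, 12 h column totals between 41509705 and 41509796), FPKM levels, and their own log2 fold changes, p-values and adjusted p-values. These comparisons of the authors served only as a reference, and their rank score was not used. Depth per culture is unknown, so no interval or detection floor was computed.

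The values were not counts, so limma 3.58.1 (R 4.3.3) was fitted to log2(normalized count + 1) in all 18 cultures, with 1 coefficient per genotype and time and a block for cultures of the same number and time (6 residual and 6.20 prior degrees of freedom). The block is in the design because the comparison was set up on same-numbered pairs; the labels do not say what a number marks. Adjustment was by Benjamini-Hochberg over 17198 genes at 0.05, two-sided; a minimum mean of 1 removed 0 genes. The logs of the authors' other expression columns spanned 15 of 17 possible dimensions. A direction among cultures counted as lacking when its singular value was under 0.05 of the largest. Whether the 2 lacking directions were removed before deposit was not tested. If replicates of a group were not separate preparations, p-values measure technical spread only.

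Named genes were Dynlrb1, Dynlrb2, every called gene, the authors' calls, the lowest-p non-overlapping genes with a mean of at least 100 where a direction had under 12, and the members at the extremes of each list. The members and the 25 gene lists (420 of 431 genes measured) were chosen with earlier results of these data known, and families and length bins after values had been seen. Y-linked genes were not analysed here, and some measured genes are not reported here. The fit was tested on simulated data. Gene positions and start regions are from RefSeq, GRCm38.p6, and for some genes the start region does not adjoin the start of the gene as positioned. Alternatives covered the block, the cultures fitted, pseudocount, filter, columns, normalization, gene length and each replicate number.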

Additional observations from a re-analysis of the deposited data

How the results depend on the processing

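The count of 17 genes at 12 h was 1 with no replicate block, 92 when only the 12 h cultures were fitted (14 shared with the 17), 6 after quantile normalization (6 shared), 2 with the length trend removed, and 0 to 54 when each replicate number was left out (10 of the 54, without number 5, shared). With the 2 lacking directions as covariates it was 19 (12 shared). It was 17 in the authors' other expression columns (13 shared, 2 higher and 15 lower), and 17, all shared, under the other pseudocount and the filters. Whether numbers mark shared animals is not stated. Deviations of same-numbered cultures correlated across all genes at 0.188, 0.0318 and 0.158 for numbers 1, 2 and 5, and at 0.316, 0.175 and 0.358 over 12477 genes with a mean of at least 100; over all genes 1 culture correlated best with another number, and over the 12477 none did. Without the block, Dynlrb1 remained at -0.78 (limma adjusted p 0.0655), and it was -0.76 (limma adjusted p 0.0624) after quantile normalization and -0.853 to -0.665 when each number was left out. The count for 12 h against 48 h, 0, became 2 without replicate 1. Dynlrb2 changed sign to -0.41 without replicate 1 and reached 1.06 without replicate 5.

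Group medians moved by more than the spread between pairs in 7 alternatives. With the length trend removed the medians were 0.0221 for dynein cargo adaptors, 0.12 for kinesins, -0.0650 for large-diameter genes and -0.14 for laminins. Leaving out each replicate gave -0.0844 to 0.0377 for the adaptors, 0.00297 to 0.209 for peptidergic genes and -0.212 to -0.0572 for large-diameter genes. For these moves the cause was not tested. Alternatives for single named genes lost the call 94 times and gained it 2 times. DESeq2 was not run because the values are not counts. With 3 cultures per group and unknown depth, low genes such as En2 and Dynlrb2 carry the least precise values.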

Other observations

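Xist kept the same order by number at 24 h, with 25866, 1582 and 36.1 in WT and 18268, 1056 and 90.0 in HET for numbers 1, 2 and 5. At 48 h it was 17285, 10302 and 19.0 in WT and 11982, 2450 and 4681 in HET for numbers 1, 2 and 3, so the cultures numbered 3 stood apart from each other.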
